A study of Mus musculus with 6 samples.

Results

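Hedgehog pathway genes were examined in LSK cells, the lineage-negative, Kit-positive and Sca1-positive fraction of mouse bone marrow, in which blood stem cells and the earliest progenitors are found. The 9 genes were Smo, Kif7, Ptch1, Gli1, Gli2, Gli3, Sufu, Boc and Gas1, all of them present among the 24063 gene symbols of the count table. Smo and Kif7 were selected on their difference in read counts between the genotypes in these same libraries, so their differences are described below without a test, and the other 7 were taken as receptors, transducers and Gli factors of the same pathway. The knockout group was 3 libraries from Arid2fl/fl:MxCre+ mice, in which both copies of Arid2, a subunit of the PBAF chromatin remodelling complex, are floxed. The control group was 3 libraries from MxCre+ mice, titled Arid2wt (wild-type Arid2). Both groups had the C57/BL6 background, both carried Cre, and both received pIpC, a synthetic RNA that triggers interferon production, at 6 to 8 weeks of age, with marrow taken 6 weeks later. The Mx promoter answers interferon in many cell types, so recombination is not limited to LSK cells. No label ties a library to an animal or litter, so a p-value here reflects library-to-library spread, which may be technical.

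Total counts were 12408966 to 24989866 reads in knockout libraries and 13950708 to 28185678 in control libraries. Arid2 itself was at 156 ± 6.15 CPM (reads scaled to library size, with TMM factors) in knockout libraries and 156 ± 8.46 CPM in control libraries (SD, n = 3 each), so gene-level counts did not separate the libraries by genotype, and every direction below rests on the labels. Counts per gene cannot tell whether the floxed exon was lost. Xist and Y-linked counts marked all 3 knockout libraries and control replicate 2 as female and control replicates 1 and 3 as male. Across all genes, 526 were higher and 626 lower in knockout libraries of 13679 tested by group alone (edgeR, adjusted p under 0.05), 119 to 440 higher and 171 to 544 lower with 1 library left out, and 7 and 36 with a sex term in the model, which in effect sets the knockout libraries against control replicate 2.

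In the Hedgehog pathway the receptor Patched, encoded by Ptch1, holds back the membrane protein Smoothened, encoded by Smo, until a Hedgehog ligand binds Patched with the help of co-receptors such as Boc and Gas1. Freed Smoothened gathers in the primary cilium and acts through the kinesin Kif7 and the inhibitor Sufu on the Gli transcription factors, of which Gli3 acts mainly as a repressor, Gli2 mainly as an activator, and Gli1 as an activator that is itself switched on by the signal. Ptch1 is likewise a transcriptional target, so that Ptch1 and Gli1 RNA are widely used as readouts of signalling. In bone marrow, Gli1 is best known as a marker of stromal cells, and a part for Smoothened in haematopoietic stem cells has been studied in mice with differing outcomes.

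Promoter sequences are shown for Smo and Kif7, both lower in knockout libraries, and for Ptch1, a Gli target that did not pass the test. The sequence of Kif21a, a relative of Kif7 described below, is shown as well. Each runs 5′ to 3′ on the gene's own strand from 250 bases before to 50 bases after the start of the RefSeq gene (GRCm38.p6), and capitals mark the GC box GGGCGG on either strand. The windows are chr6:29735247-29735546 on the plus strand for Smo, and, on the minus strand, chr7:79715658-79715957 for Kif7, chr13:63565686-63565985 for Ptch1 and chr15:91049902-91050201 for Kif21a. The Ptch1 window lies inside the GENCODE gene of that name (63508328 to 63573598), downstream of its 5′ end. The sequence at that 5′ end is not shown.
Smo: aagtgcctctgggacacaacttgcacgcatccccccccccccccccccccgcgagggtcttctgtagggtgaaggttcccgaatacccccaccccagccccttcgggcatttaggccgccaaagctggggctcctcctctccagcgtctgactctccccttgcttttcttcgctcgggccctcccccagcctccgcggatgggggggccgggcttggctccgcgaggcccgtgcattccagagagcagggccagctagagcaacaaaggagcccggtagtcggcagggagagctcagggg
Kif7: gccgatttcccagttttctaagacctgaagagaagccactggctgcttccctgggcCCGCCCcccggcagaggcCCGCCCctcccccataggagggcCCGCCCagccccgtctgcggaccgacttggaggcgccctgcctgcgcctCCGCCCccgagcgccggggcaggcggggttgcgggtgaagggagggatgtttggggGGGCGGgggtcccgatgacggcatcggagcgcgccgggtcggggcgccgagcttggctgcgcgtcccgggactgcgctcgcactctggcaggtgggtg
Ptch1: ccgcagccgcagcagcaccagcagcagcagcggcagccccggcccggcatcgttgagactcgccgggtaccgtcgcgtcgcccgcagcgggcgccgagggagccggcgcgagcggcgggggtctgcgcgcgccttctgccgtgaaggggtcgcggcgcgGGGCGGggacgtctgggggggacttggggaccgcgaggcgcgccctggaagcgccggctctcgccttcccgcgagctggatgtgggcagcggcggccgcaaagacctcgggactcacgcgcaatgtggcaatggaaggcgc
Kif21a: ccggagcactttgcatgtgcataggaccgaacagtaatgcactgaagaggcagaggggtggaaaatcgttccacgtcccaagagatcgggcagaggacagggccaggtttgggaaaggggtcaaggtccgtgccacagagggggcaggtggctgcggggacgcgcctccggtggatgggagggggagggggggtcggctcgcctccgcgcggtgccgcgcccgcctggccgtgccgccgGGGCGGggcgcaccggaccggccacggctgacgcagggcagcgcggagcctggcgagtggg
The Kif7 window held 5 GC boxes, the Ptch1 and Kif21a windows 1 each and the Smo window 0. The same letters occurred in 35.7% of 32851 RefSeq promoters of that length. The Gli consensus GACCACCCA, searched like the rest on both strands, occurred in 0 of these 4 windows and in 0.253% of all promoters. The ETS letters CCGGAAG and the E-box CACGTG were likewise in 0 of the 4 windows, and in 8.86% and 7.15% of all promoters. The ratio of observed to expected CpG was 0.504 in the Smo window, 0.757 in Kif7, 1.09 in Ptch1 and 0.842 in Kif21a, against a median of 0.384 over all promoters. A match or its absence describes these letters in these windows. Of the 9 members, 7 had an entry in the promoter table; those not matched were Gli1 and Boc.

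Smo RNA was about 37.2% of the control level in the libraries labelled knockout. Smo (ENSMUSG00000001761, chromosome 6, 29735503 to 29761365, plus strand, mm10) had 547, 721 and 370 reads in knockout replicates 1 to 3, against 1196, 1993 and 1331 reads in control replicates 1 to 3. After scaling, these were 28.9, 29.1 and 29.7 CPM in knockout libraries, against 73.5, 70.8 and 91.7 CPM in control libraries. The knockout libraries lay within 1 CPM of each other, control replicate 3 stood highest, and the groups did not overlap. On the log2 scale the difference, knockout over control, was −1.43 (SE 0.10), with a 95% confidence interval of 31.6% to 43.8% of the control level. With the sex term it was −1.28 (SE 0.12), and the female control, replicate 2, was the lowest of the controls.

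Kif7, which encodes a kinesin of the cilium tip that regulates Gli processing, had the larger difference and far fewer reads. Kif7 (ENSMUSG00000050382, chromosome 7, 79698098 to 79715720, minus strand, mm10) had 31, 36 and 15 reads in knockout replicates 1 to 3, against 134, 261 and 149 reads in control replicates 1 to 3. Scaled, the levels were 1.64, 1.45 and 1.20 CPM in knockout libraries, against 8.24, 9.27 and 10.3 CPM in control libraries. The lowest control library thus stood well above the highest knockout library. The log2 fold change was −2.67 (SE 0.21), a level 15.7% of control with a 95% interval of 11.3% to 21.8%, and −2.68 (SE 0.27) with the sex term. The 3′ neighbour Ticrr, a DNA replication gene on the opposite strand, shares 51 exon bases with Kif7. Ticrr had 62.1 ± 4.47 CPM in knockout libraries and 64.4 ± 0.424 CPM in control libraries (SD, n = 3 each). The sources used here do not give how such reads were assigned.

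**Figure D1:**
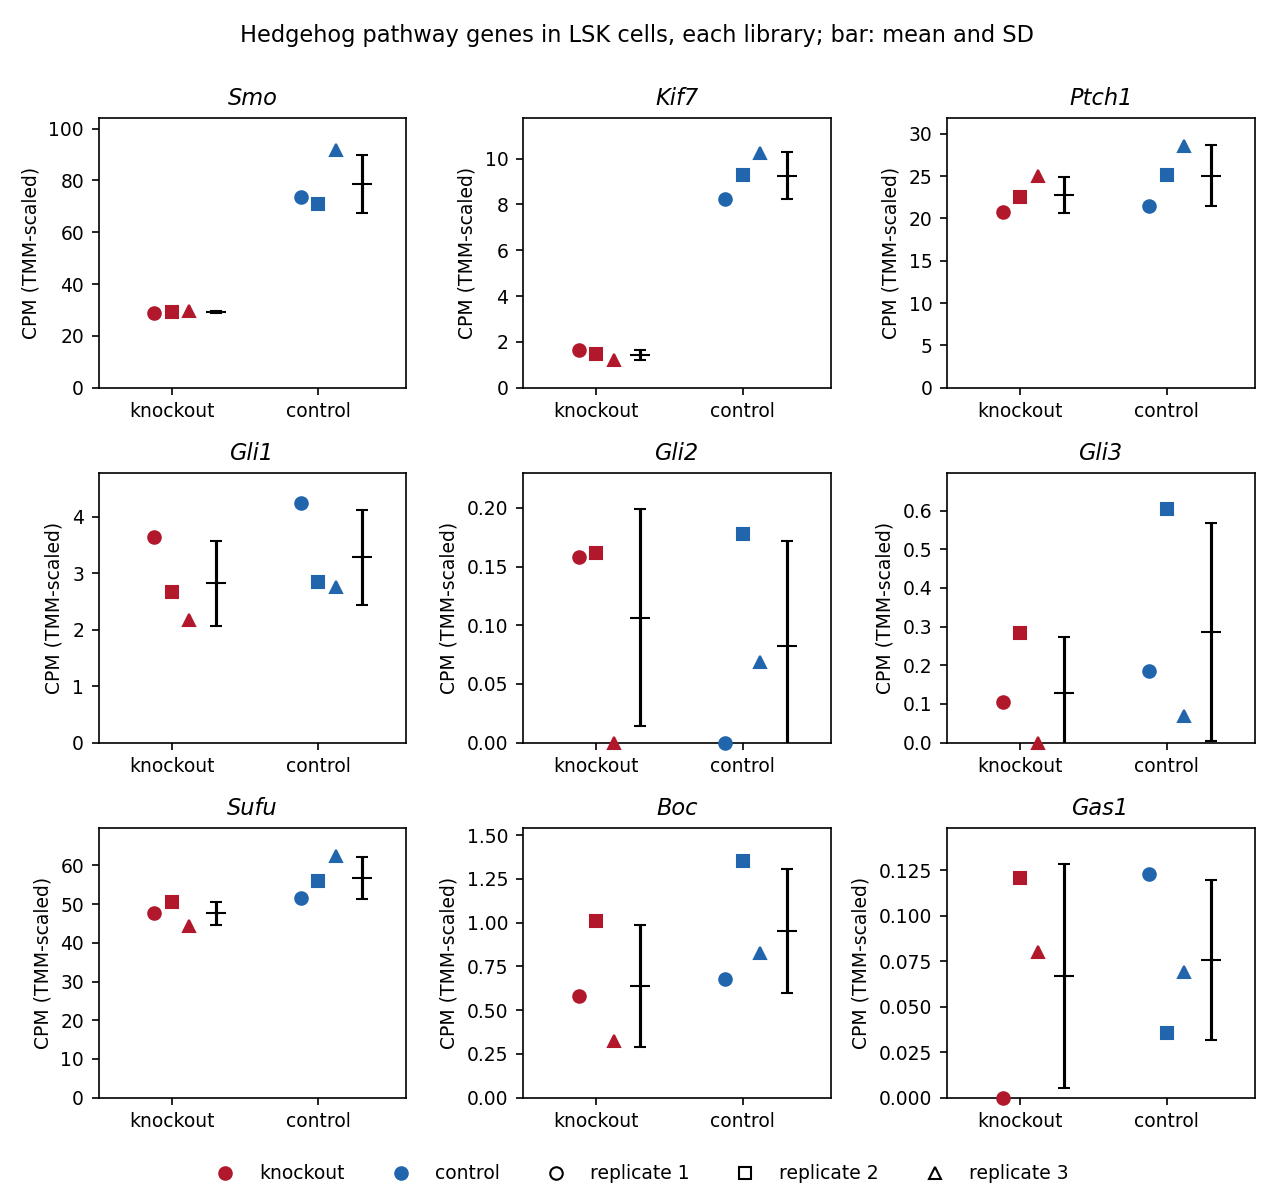
TMM-scaled read counts (CPM, vertical axes, each with its own scale from 0) of the 9 Hedgehog genes in the knockout and control libraries, with the marker shape giving the replicate number and the bars the mean and SD of 3 libraries. Smo lies at 28.9 to 29.7 CPM in knockout and 70.8 to 91.7 CPM in control libraries and Kif7 at 1.20 to 1.64 CPM in knockout and 8.24 to 10.3 CPM in control libraries, while the groups overlap for the other members except Sufu, at 44.5 to 50.5 CPM in knockout and 51.6 to 62.5 CPM in control libraries.

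Among the receptors, Ptch1 did not pass the test. Its levels were 20.8, 22.5 and 25.0 CPM in knockout libraries, against 21.5, 25.2 and 28.6 CPM in control libraries, and the groups overlapped. The log2 fold change was −0.14 (SE 0.13, edgeR adjusted p = 0.547, n = 3 each), with a 95% interval from 74.2% to 111% of control. Boc, a co-receptor that binds Hedgehog ligands, was scarce, with 11, 25 and 4 reads in knockout libraries, against 11, 38 and 12 reads in control libraries. Its log2 fold change of −0.53 (SE 0.47, edgeR adjusted p = 0.529) came with an interval from 32.9% to 145% of control, so a change of the size seen for Smo could not be told from none at this depth. Gas1, another co-receptor, had 0, 3 and 1 reads in knockout libraries, against 2, 1 and 1 reads in control libraries, and was too low to test.

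Downstream of Smo, the inhibitor Sufu was second to Smo per kilobase of exon in both groups. It had 47.8, 50.5 and 44.5 CPM in knockout libraries, against 51.6, 56.0 and 62.5 CPM in control libraries. Although the groups did not overlap, Sufu did not pass the test (edgeR adjusted p = 0.121, log2 fold change −0.25 with SE 0.09; unadjusted p = 0.0208). Gli1, the activator induced by the pathway, had 3.65, 2.66 and 2.17 CPM in knockout libraries, against 4.24, 2.84 and 2.76 CPM in control libraries. In both groups replicate 1 was the highest, and the ranges overlapped. The fold change of Gli1 did not pass the test (log2 −0.20, SE 0.28, edgeR adjusted p = 0.715), and its sign turned with the sex term (0.0017) and without control replicate 1 (0.022). Gli1 shares 62 exon bases on opposite strands with Arhgap9, a gene of blood cells at 146 ± 10.9 CPM in knockout libraries and 142 ± 16.9 CPM in control libraries (SD, n = 3 each). Since the strand setting of the counting is not given, reads of Arhgap9 counted as Gli1 cannot be told apart from Gli1 reads. Gli2 had 3, 4 and 0 reads in knockout libraries, against 0, 5 and 1 in control libraries. Gli3 had 2, 7 and 0 reads in knockout libraries, against 3, 17 and 1 in control libraries. Both were too low to test, and control replicate 2, the deepest library, held most of the Gli3 reads.

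Of the 9 members, 6 had enough reads to be tested, and 2 of these, Smo and Kif7, were past the threshold in the lower direction, beside 4.58% of all genes tested lower and 8.42% in either direction. This contrast chose them, so nothing is read from that count. Higher members numbered 0 (edgeR; also 0 at an unadjusted p under 0.05, with DESeq2 and with limma-voom), beside 3.85% of all genes. Smo, Kif7 and Sufu had no overlap between the groups with knockout lower, a pattern that 16.1% of all genes tested showed. The plot of all genes tested places Smo and Kif7 away from the main cloud and the other 4 tested members within it.

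**Figure D2:**
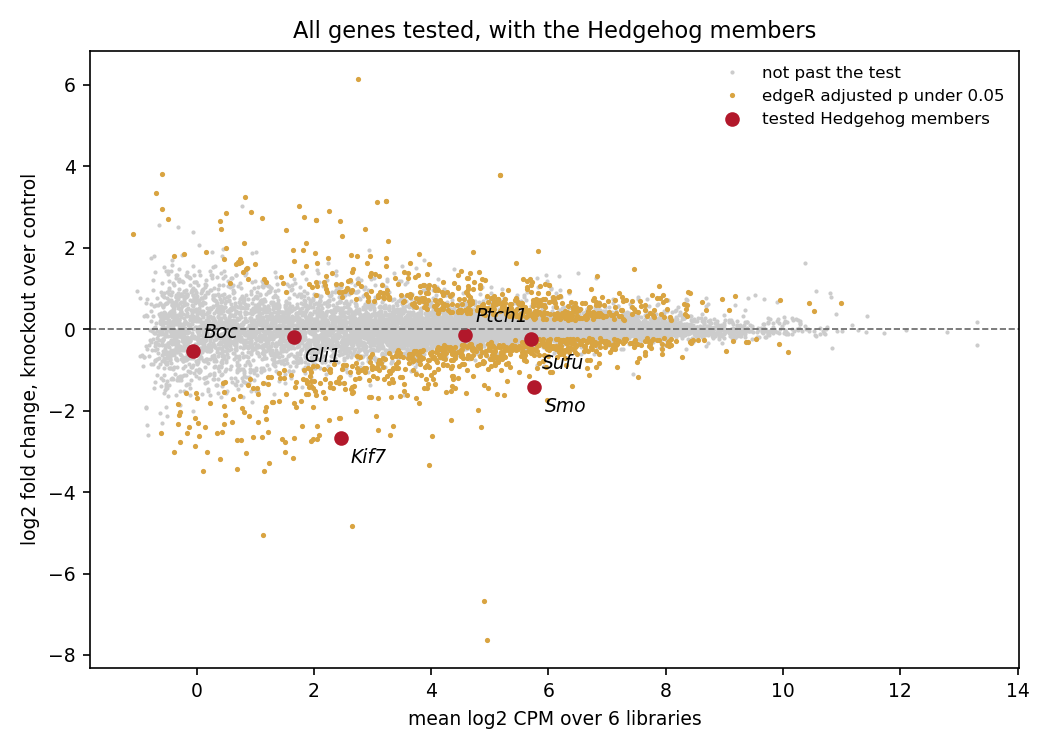
Log2 fold change of knockout over control libraries (vertical axis) against the mean log2 CPM over the 6 libraries (horizontal axis) for 13679 genes, with genes past the edgeR threshold in ochre and the 6 tested Hedgehog members in red. Smo at −1.43 and Kif7 at −2.67 lie at the lower side of the plot, and Ptch1, Sufu, Gli1 and Boc lie between −0.53 and −0.14.

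Levels were set against each other only per kilobase of exon, with the exons of protein-coding GENCODE transcripts. In control libraries Smo led with 20.8 ± 3.0 CPM per kb, followed by Sufu (8.47 ± 0.82), Ptch1 (3.21 ± 0.457), Kif7 (2.02 ± 0.221), Gli1 (0.808 ± 0.206) and Boc (0.214 ± 0.0795; SD, n = 3 each). The ranges of these 6 genes did not overlap in control libraries. In knockout libraries Smo was at 7.73 ± 0.109 CPM per kb and Sufu at 7.11 ± 0.449, and the ranges of 7.65 to 7.86 and 6.64 to 7.54 did not overlap. Kif7, at 0.312 ± 0.0476 CPM per kb, stood below Gli1 (0.696 ± 0.186) in knockout libraries, whereas in control libraries it stood above Gli1. Ranges of Gli2, Gli3 and Gas1 overlapped one another within each group, all under 0.1 CPM per kb.

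Outside the 9 members, 141 further symbols of the pathway, its cilium machinery and the related protein families were listed. Of these, 137 were in the table and 110 could be tested: 7 were higher, 6 lower and 97 did not pass (edgeR, adjusted p under 0.05). That is 11.8% called, beside 8.42% of all genes (3.85% higher and 4.58% lower), shares that also stand beside the list counts below. At an unadjusted p under 0.05 (edgeR), 10 of the 110 were higher and 24 lower. Over all genes, 3405 of 13679 were under 0.05 in either direction, which stands beside the unadjusted list counts below. The median log2 fold change of the 110 genes was −0.09, beside −0.002 over all genes tested. The sex term left 0 higher and 1 lower, Kif21a, with a median log2 fold change of −0.04 over the 110 genes. Without knockout replicates 1, 2 and 3 or control replicate 1, the genes called higher numbered 3, 2, 3 and 1.

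Ligand genes were nearly silent. Shh had 0 reads in all 6 libraries, which allows up to 0.107 to 0.241 CPM per library (a count of 3), Dhh had 4 reads in all and Ihh 29. Of the tested genes for ligand processing and release, 0 of 3 passed in edgeR, DESeq2 or limma-voom, and 1, Hhat, was lower at an unadjusted p under 0.05. Hhat, the acyltransferase that attaches palmitate to Hedgehog proteins, had 3.91 ± 0.472 CPM in knockout libraries and 6.06 ± 1.30 CPM in control libraries (SD, n = 3 each; log2 fold change −0.61, edgeR adjusted p = 0.121). Disp1, which releases lipid-modified ligand, was at 17.5 ± 1.39 CPM in knockout libraries and 16.6 ± 2.42 CPM in control libraries.

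Gpc3, a glypican that binds Hedgehog ligand at the cell surface and competes with Patched for it, fell. Its gene lies on the X chromosome. Levels were 1.43, 1.09 and 0.642 CPM in knockout libraries, against 4.30, 6.01 and 6.47 CPM in control libraries, with no overlap (edgeR adjusted p = 0.00528, with a log2 fold change of −2.37 and SE 0.31, 3 libraries a group). The value was −2.47 with the sex term, no longer past the threshold (adjusted p = 0.0703). Cdon, a co-receptor related to Boc, was at 3.18 ± 0.926 CPM in knockout libraries and 3.51 ± 0.248 CPM in control libraries (edgeR adjusted p = 0.808). Hhip, a ligand trap that the pathway induces, had 1 read in all.

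**Figure D3:**
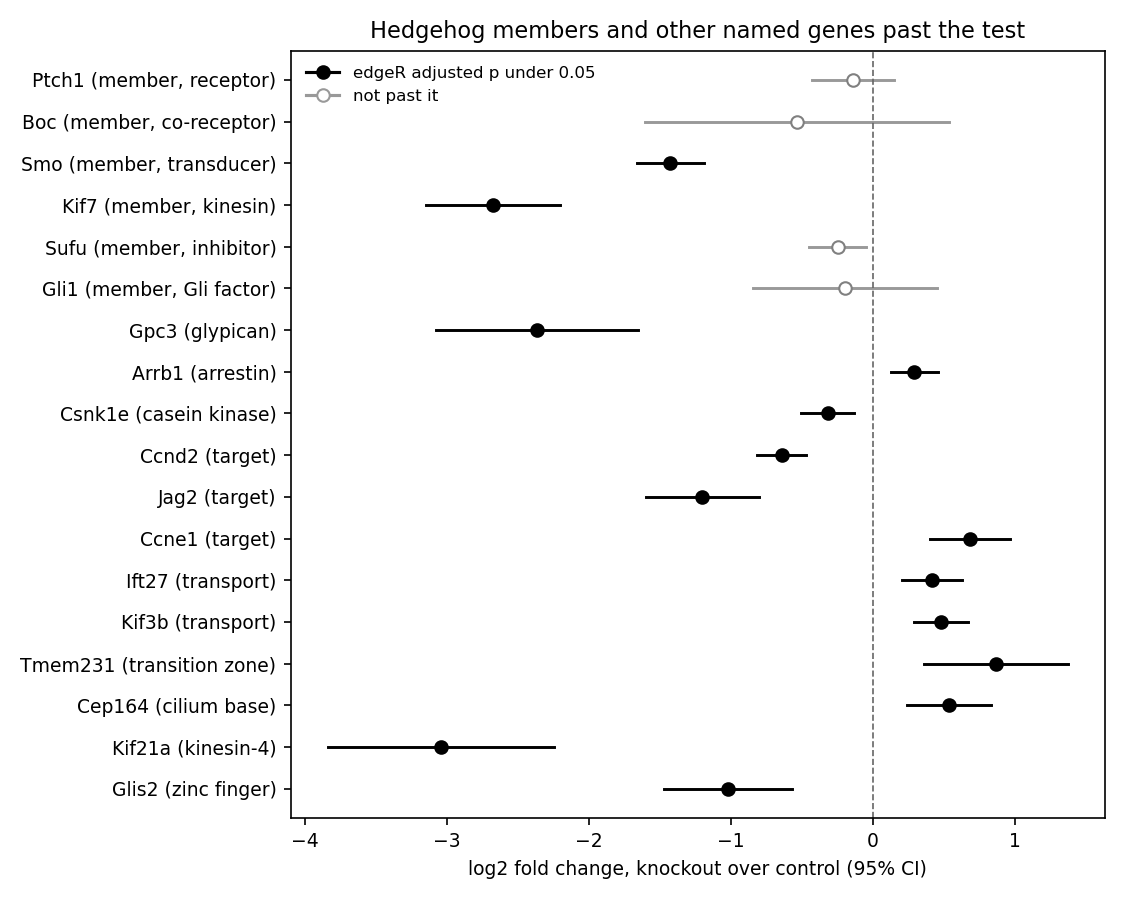
Log2 fold change of knockout over control libraries with 95% confidence intervals (horizontal axis) for the 6 tested Hedgehog members and for pathway, cilium and family genes that passed the test, filled where the edgeR adjusted p is under 0.05. Smo (−1.43), Kif7 (−2.67), Gpc3 (−2.37) and Kif21a (−3.04) lie farthest below 0, Tmem231 (0.87) lies farthest above it among those drawn, and the intervals of Ptch1, Boc and Gli1 include 0. Smo and Kif7 were chosen from this contrast, which their intervals and fill do not take into account.

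Of 12 tested genes that regulate Smoothened at the cilium, 1 was higher and 0 lower (edgeR; 3 lower at an unadjusted p under 0.05, and 0 lower with DESeq2 and limma-voom). Arrb1, a β-arrestin that binds phosphorylated Smoothened, had 244 ± 7.97 CPM in knockout libraries and 199.7 ± 16.3 CPM in control libraries (log2 fold change 0.29, edgeR adjusted p = 0.0442). Its call did not hold without any 1 of the knockout replicates, control replicate 1 or control replicate 2 (adjusted p up to 0.144). Evc and Evc2, partners of Smoothened at the cilium base, had log2 fold changes of −1.23 and −1.12, with group means under 2 CPM, and did not pass (adjusted p = 0.124 and 0.172). Among 18 tested kinases, adaptors and ligases that act on Gli proteins, Csnk1e, a casein kinase, was the one past the threshold, with 89.7 ± 7.59 CPM in knockout libraries and 112 ± 7.34 CPM in control libraries (log2 fold change −0.32, edgeR adjusted p = 0.0478). Csnk1e did not pass with RLE size factors or with limma-voom (adjusted p = 0.0533 in both; 0 of 18 lower with limma-voom, 1 with DESeq2), nor without any 1 of the knockout replicates, control replicate 1 or control replicate 3 (adjusted p up to 0.142). The median log2 fold change of these 18 was 0.02.

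Of 18 listed Gli target genes in the table, 8 could be tested, and 2 were higher and 2 lower, beside 3.85% and 4.58% of all genes tested. Those lower were Ccnd2, a D-type cyclin, with 146, 166 and 158 CPM in knockout libraries, against 247, 228 and 260.2 CPM in control libraries (log2 fold change −0.64, SE 0.07, edgeR adjusted p = 0.00373), and Jag2, a Notch ligand. Jag2 had 4.81, 5.65 and 4.65 CPM in knockout libraries, against 11.6, 9.95 and 13.6 CPM in control libraries (log2 fold change −1.20, SE 0.18, edgeR adjusted p = 0.0077). Neither pair of ranges overlapped. Ccne1, a cyclin of S phase entry, was among those higher (log2 fold change 0.68, edgeR adjusted p = 0.0165), while Mycn had −0.60 and Ccnd1 0.13 without passing (adjusted p = 0.0716 and 0.723). With the sex term Ccnd2, Jag2 and Ccne1 kept their direction without passing (adjusted p = 0.0842, 0.149 and 0.224), and Ccne1 also missed it without knockout replicate 2 or control replicate 1 (0.0576 and 0.0524).

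Cilium genes were read in 2 lists. Of 24 intraflagellar transport genes, all tested, 2 were higher and 0 lower (edgeR; 2 lower at an unadjusted p under 0.05, 1 lower with DESeq2 and 0 with limma-voom), with a median log2 fold change of −0.07. Kif3b, a subunit of the kinesin motor that drives transport outwards along the cilium, had 59.5 ± 4.28 CPM in knockout libraries and 42.6 ± 2.94 CPM in control libraries (log2 fold change 0.48, edgeR adjusted p = 0.0141), and Ift27 had 26 ± 1.04 CPM in knockout libraries and 19.5 ± 1.13 CPM in control libraries (0.42, adjusted p = 0.0331). Ttc21b, a component of the returning transport complex, had −0.52 (adjusted p = 0.0588). Of 29 tested genes of the transition zone and base, Tmem231 (0.87) and Cep164 (0.53) were higher and 0 were lower (edgeR; 3 lower at an unadjusted p under 0.05, 2 lower with DESeq2 and 0 with limma-voom), with a median of −0.05. Each of these 4 calls depended on single libraries: Kif3b missed the threshold without control replicate 1 (adjusted p = 0.0501), and Ift27, Cep164 and Tmem231 without any 1 of the knockout replicates or control replicate 1 (up to 0.102, 0.126 and 0.132). Ift27 and Cep164 missed it also without control replicate 3, and Tmem231 without control replicate 2.

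Relatives of Smo and Kif7 by protein family gave different pictures. Smoothened is a class F receptor together with the Frizzled receptors of Wnt ligands. Of the 8 Frizzled genes tested, 0 passed with edgeR or limma-voom, and 1 was lower with DESeq2. At an unadjusted p under 0.05 (edgeR), 5 were lower and 0 higher, beside 3405 of all 13679 genes tested in either direction. Negative log2 fold changes were seen for 7 of the 8, from −0.93 for Fzd4 to −0.18 for Fzd7. Fzd5 had 4.50 ± 0.48 CPM in knockout libraries and 7.23 ± 1.31 CPM in control libraries (log2 fold change −0.68, edgeR adjusted p = 0.0775). With the sex term the median over the 8 moved to −0.33, against −0.69 by group alone. Per kilobase of exon, Fzd7 had the highest mean of the Frizzled genes. It had 4.85 ± 0.597 CPM per kb in knockout libraries and 5.48 ± 0.526 CPM per kb in control libraries. Its range in control libraries, 5.11 to 6.08 CPM per kb, overlapped that of another Frizzled gene.

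In the kinesin-4 family, to which Kif7 belongs, Kif21a fell while Kif4 and Kif21b did not pass. Kif21a, a motor that limits microtubule growth, had 5, 11 and 4 reads in knockout libraries, against 42, 103 and 36 reads in control libraries, or 0.264, 0.444 and 0.321 CPM in knockout against 2.58, 3.66 and 2.48 CPM in control libraries. The groups lay far apart at this low level (edgeR adjusted p = 0.00361, with a log2 fold change of −3.04 and SE 0.35, 3 libraries a group), and the value with the sex term was −3.36 (adjusted p = 0.0383). Kif21a lies on chromosome 15 (90933276 to 91049948, minus strand, mm10), 5.24 Mb from the floxed gene Arid2 on the same chromosome. Kif4, a chromosome-associated motor of dividing cells, was at 80.7 ± 6.68 CPM in knockout libraries and 81.9 ± 10.1 CPM in control libraries, and Kif21b at 113 ± 6.43 CPM in knockout and 124 ± 9.90 CPM in control libraries (log2 −0.02 and −0.14, edgeR adjusted p = 0.919 and 0.296). Kif27, the closest relative of Kif7, was too low to test, with 5, 7 and 5 reads in knockout libraries, against 0, 0 and 4 reads in control libraries. Among zinc finger factors related to the Gli proteins, Glis2 was lower (log2 fold change −1.02, edgeR adjusted p = 0.0204; up to 0.0735 without any 1 of the knockout replicates or control replicate 1) and Glis3 had 1.05 without passing (adjusted p = 0.0654).

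**Figure D4:**
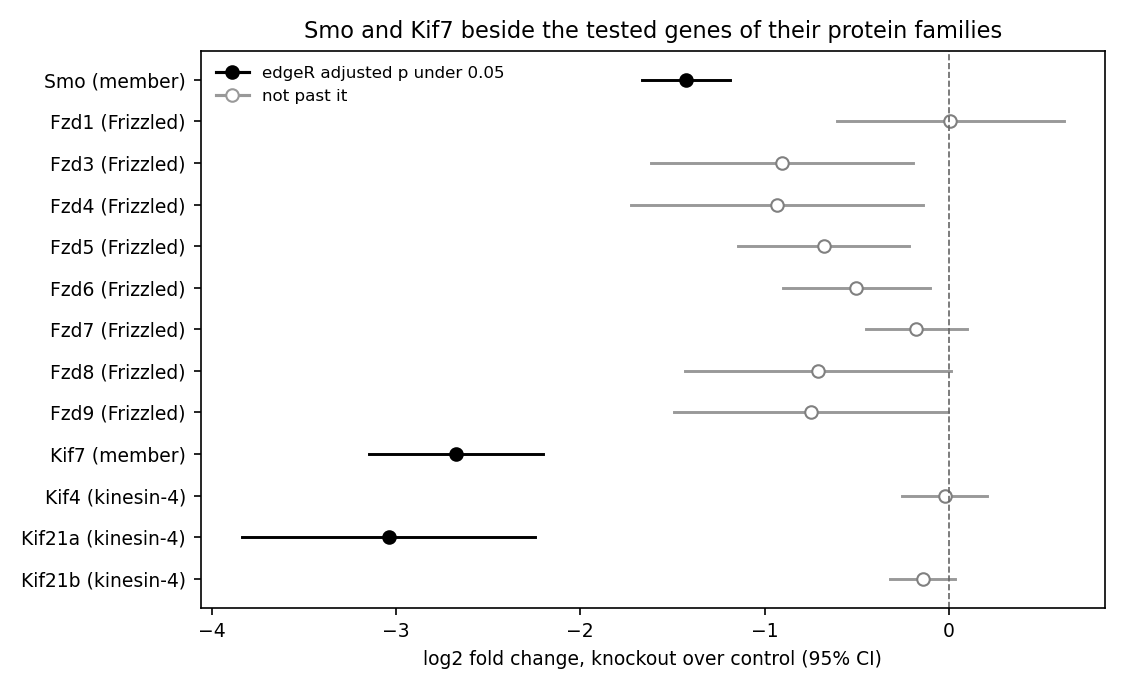
Log2 fold change of knockout over control libraries with 95% confidence intervals (horizontal axis) for Smo above the 8 tested Frizzled genes and for Kif7 above the 3 other tested kinesin-4 genes, filled where the edgeR adjusted p is under 0.05. No Frizzled gene passed, Kif21a (−3.04) lies beside Kif7 (−2.67), and Kif4 (−0.02) and Kif21b (−0.14) lie near 0. The intervals and fill of Smo and Kif7 do not take into account that this contrast chose them.

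Genes beside Smo and Kif7 on the chromosome did not pass. Within 100 kb of Smo, Tspan33, a tetraspanin gene upstream, had 25.7 ± 10.2 CPM in knockout libraries and 15.7 ± 9.01 CPM in control libraries (log2 fold change 0.71, edgeR adjusted p = 0.316). Ahcyl2, downstream, had 31.7 ± 3.88 CPM in knockout and 30.1 ± 3.58 CPM in control libraries (0.07, adjusted p = 0.783). Around Kif7, Ticrr, Pex11a and Rhcg had −0.05, −0.38 and 0.62 (adjusted p = 0.689, 0.452 and 0.538). None of these 5 had an unadjusted p under 0.05, and none passed with DESeq2 or limma-voom.

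By Pearson correlation of log2 CPM over the 6 libraries among 11570 genes, the genes most like Smo included Armcx2, Trp53bp2, Bok and Rufy2 (r from 0.995 to 0.998), and those most like Kif7 were Ccdc8, Prrc2a, Ccdc40, Ralgps2 and Hmgn3 (r from 0.996 to 0.999). All of these were lower in every knockout library than in every control library, a pattern that 16.1% of all genes tested showed. They were picked for likeness to Smo or Kif7, themselves chosen on the group difference, so nothing is read from it. Ccdc40 did not pass the test (edgeR adjusted p = 0.0851). Bok, a BCL2 family member, had the largest difference of those named as like Smo, at 0.423, 0.363 and 0.481 CPM in knockout libraries, against 3.93, 3.66 and 4.75 CPM in control libraries. Ccdc8, the gene most like Kif7, had 10.3, 10.2 and 9.23 CPM in knockout libraries, against 20.7, 21.8 and 22.5 CPM in control libraries. Smo and Kif7, both chosen on their difference between the groups, had r = 0.99 with each other. These values share 6 libraries in 2 groups and describe likeness only.

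Marker genes of the sorted cells and of other marrow cells moved with genotype as well. Of 10 stem and progenitor markers, 6 were lower (edgeR, adjusted p under 0.05), and another 1 was higher at an unadjusted p under 0.05. Over all genes tested, 4.58% were lower and 3.85% higher at the adjusted threshold. Log2 fold changes of the lower markers included −0.71 for Gata2, −0.67 for Flt3, −0.53 for Cd34, −0.43 for Meis1 and −0.31 for Myb. The summed level of the 10 stem and progenitor markers was 2437 to 2544 CPM in knockout libraries and 3011 to 3349 CPM in control libraries. Macrophage markers (Marco and Csf1r higher, 2 of 8) summed to 557 to 1148 CPM in knockout libraries and 304 to 463 CPM in control libraries, and erythroblast markers (Hba-a1, Hbb-bs, Alas2 and Slc4a1 higher, 4 of 5) to 61.3 to 182 CPM in knockout libraries and 10.9 to 21.6 CPM in control libraries. In the same knockout libraries Smo was at 28.9 to 29.7 CPM and Kif7 at 1.20 to 1.64 CPM. Whether either gene follows these sums was not tested. Of 14 stromal markers, 4 could be tested and 1, Pdgfrb, was lower (log2 fold change −1.27). Their sum was 120.1 to 132 CPM in knockout libraries and 153.5 to 208 CPM in control libraries, most of it Runx2 and Pdgfrb, while Lum had 0 reads, Dcn and Prrx1 2 each and Lepr 8 over all libraries. Endothelial markers (Tie1 and Emcn lower, 2 of 7) summed to 199 to 217 CPM in knockout libraries and 263 to 309 CPM in control libraries, with 25 reads of Cdh5 in all. With the sex term 0 of the genes in these 5 lists passed (edgeR). That fit in effect sets the knockout libraries against control replicate 2. Its median log2 fold changes were −0.39 for stem and progenitor, −0.39 for stromal and −0.52 for endothelial markers. For macrophage and erythroblast markers they were 1.30 and 3.40, beside 0.007 over all genes tested. In bulk RNA, fewer cells of a type and less RNA per cell cannot be told apart, and the part of cell composition in the values of Smo, Kif7 and the other genes was not tested.

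Across alternative settings Smo ranged from −1.49 to −1.28 and Kif7 from −2.77 to −2.58 on the log2 scale, and Ptch1 and Sufu stayed negative without passing in any of 13 alternatives, as the plot of fold changes under each alternative shows.

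**Figure D5:**
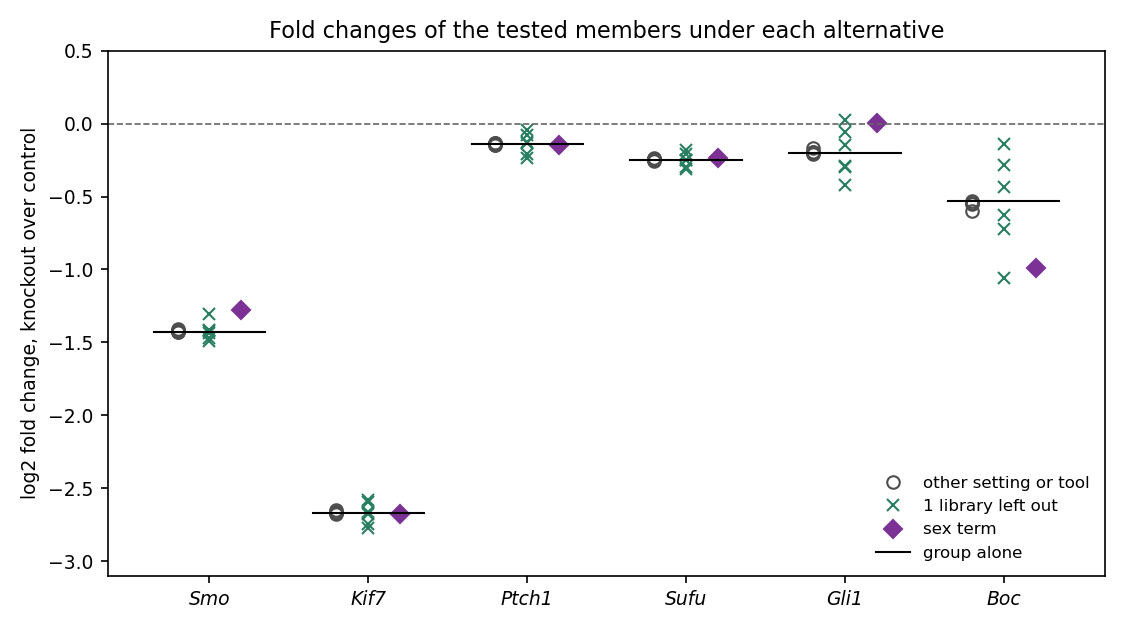
Log2 fold change of knockout over control libraries (vertical axis) for the 6 tested Hedgehog members, with the value by group alone as a black line, other settings and tools as circles, fits without 1 library as crosses, and the fit with a sex term as a diamond. Smo (−1.49 to −1.28) and Kif7 (−2.77 to −2.58) lie apart from the other members, Gli1 crosses 0 (−0.42 to 0.02), and Boc spreads from −1.06 to −0.14.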

How the data were processed

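RNA of 3 knockout and 3 control LSK samples was poly(A)-selected and made into strand-specific libraries, per the labels' protocols. The authors deposited whole-number read counts per gene symbol, with no normalization. Per the submitters' processing notes, STAR and mm10 were used. The tool that counted reads, the gene models and any strand option were not given in the sources here, so multi-mapped or overlapping reads cannot be traced.

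Counts were filtered with filterByExpr (minimum count 10, minimum total 15), scaled by TMM and tested with the edgeR 4.0.16 quasi-likelihood F test (R 4.3.3) by group alone. P-values were adjusted by Benjamini-Hochberg across the 13679 symbols tested, with a threshold of 0.05. SE is the log2 fold change over the root of F. CPM and intervals were computed here; intervals rest on the model's estimate of library spread alone. DESeq2 1.42.0 and limma 3.58.1 served as alternatives. Positions and exon lengths came from GENCODE M21 on GRCm38 (mm10), where 190 of 192 listed symbols matched. Promoters came from RefSeq.

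The members and gene lists were chosen with earlier results of these data known. Named genes are the 9 members, listed genes past the threshold, up to 4 others of each list with the smallest p, tested genes within 100 kb of Smo or Kif7, and the 5 most correlated with each at a mean of at least 1 log2 CPM, passing over predicted models, Xist and Y-linked genes. Correlations used log2(CPM + 0.5). Arid2, Kif27, Fzd7, Arhgap9 and genes at or near 0 reads were named outside that rule. Grk2 and Foxf1a stand in the table as Adrbk1 and Foxf1; Mosmo and Talpid3 matched no row. Every pair of libraries differed beyond sampling noise (chi-square of at least 10.2 per degree of freedom). A few genes that this rule or the counts include are not reported here. Counts simulated with known changes were used to check the script.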

Additional observations from a re-analysis of the deposited data

How the results depend on the processing

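Ptch1, Sufu, Gli1 and Boc passed in none of the alternative fits that gave them a value. Smo and Kif7 were chosen from this contrast, so refits of the same counts lend them no support. Gli1 turned to 0.0017 with the sex term and ranged from −0.42 to 0.022 with 1 library left out, positive without control replicate 1 (log2 scale); the cause was not tested. Over all genes, DESeq2 called 816 higher, the threshold of 0.1 gave 951 higher and 1051 lower, and the sex term 7 higher and 36 lower. The fit with the replicate number as a block gave 1169 higher and 1003 lower. Leaving out 1 library gave 119 to 440 higher and 171 to 544 lower. Among the other listed genes, those lower numbered 11 with no filter on low counts, 11 with DESeq2, 11 with the replicate block, 12 at the threshold of 0.1 and 1 with the sex term, and those higher 0 with the sex term; leaving out 1 library gave 1 to 5 higher and 4 to 7 lower. Of the 13 called by group alone, Kif21a kept its call in all 13 fits, and Gpc3, Jag2 and Ccnd2 lost it with the sex term alone. Kif3b lost it also without control replicate 1 (edgeR adjusted p = 0.0501), and Ccne1 also without knockout replicate 2 (0.0576) and control replicate 1 (0.0524). Arrb1, Cep164, Ift27 and Tmem231 lost it in 6 of 13 fits, Glis2 in 5 and Csnk1e in 8. Boc could not be fitted under the filter of 1 CPM in 3 libraries. Same-numbered libraries of the 2 groups deviated together for replicates 1 and 3 (r = 0.29 and 0.34) but not for replicate 2 (r = −0.005). Of the 6 libraries, 4 correlated best with their own number. The labels name no pairs or batches, and the main fit took none. Whether the numbers mark a shared batch was not tested. Low counts limit Boc, Gli2, Gli3 and Gas1.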
